A study of Rattus norvegicus with 9 samples.

Results

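Ccn1, Ccn2, Ankrd1, Ajuba and Axl are widely used target genes of the transcriptional coactivator YAP and its DNA-binding partners of the TEAD family. Their RNA was measured in primary rat Schwann cells in which the tumour suppressor Nf1 was knocked down, with and without the MEK inhibitor U0126. Every probe set annotated to exactly 1 of the 5 genes was taken, where Ccn1 was also sought under its older name Cyr61 and Ccn2 under Ctgf. This gave 7 probe sets of 31042 and 5 genes of 14213, with a second probe set for Ankrd1 and for Ajuba. The genes were chosen by name with their differences between the 3 groups in these same 9 arrays already known, so their values are a description and carry no test.

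YAP and its relative TAZ, which the Wwtr1 gene encodes, have no DNA-binding domain and act through TEAD factors. The Hippo kinase cascade, in which MST kinases activate LATS kinases, phosphorylates YAP and TAZ and keeps them out of the nucleus, while a spread, tense actin cytoskeleton favours their entry. In mouse nerves YAP and TAZ are known to be needed for Schwann cells to sort axons and form myelin. Expression arrays measure RNA alone, so neither the phosphorylation nor the position of YAP was measured.

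Each group held 3 arrays from independent biological replicates of rat sciatic nerve Schwann cells, collected 48 h after transient transfection. The NF1 RNAi + U0126 group received oligonucleotides against NF1 together with the inhibitor, the NF1 RNAi group received these oligonucleotides alone, and the Control RNAi group received scrambled oligonucleotides. Control cells with the inhibitor were not analysed here, so every value with U0126 comes from NF1 knockdown cells and an effect of the inhibitor on its own cannot be told apart from an effect that needs the knockdown. Intensities are linear array brightness after the authors' normalization, and differences are on the log2(intensity + 1) scale with standard errors (SE) from a limma fit over all 9 arrays.

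The knockdown was visible in the targeted transcript. Nf1 intensity was 42.5, 51.7 and 40.9 with NF1 RNAi + U0126 and 41.1, 41.5 and 42.4 with NF1 RNAi, against 99.3, 95.6 and 70.0 with Control RNAi. It fell by 1.05 ± 0.13 (log2, SE, limma adjusted p = 0.000695) in NF1 RNAi against Control RNAi, and by 0.95 ± 0.13 (adjusted p = 0.000662) in NF1 RNAi + U0126 against Control RNAi. Replicate 1 stood apart from its partners in every group: within groups, log2 differences between replicates 2 and 3 had an SD of 0.152 to 0.17, and those between replicate 1 and another replicate an SD of 0.205 to 0.358. RNA quality by the beta-actin control, as its 3′ minus 5′ log2 signal, was 0.85 to 0.87 with NF1 RNAi + U0126, 0.78 to 0.85 with NF1 RNAi, and 0.90, 0.62 and 0.60 with Control RNAi. By the GAPDH control the groups overlapped, at -0.06 to -0.05, -0.1 to -0.02, and -0.11 to 0.06 in the same order.

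The promoters of Ccn2, Ccn1 and Ajuba are shown because TEAD factors are known to act at sites near the start of target genes, and GGAATG is the core of the sequence they prefer. The 250 bases before each RefSeq start site in assembly GRCr8 are written 5′ to 3′ on the gene's strand, with GGAATG, or CATTCC where the match lies on the other strand, in capitals. All 3 genes are on the minus strand: Ccn2 at chr1:22624615-22624864, Ccn1 at chr2:237225690-237225939 and Ajuba at chr15:32000043-32000292.
Ccn2: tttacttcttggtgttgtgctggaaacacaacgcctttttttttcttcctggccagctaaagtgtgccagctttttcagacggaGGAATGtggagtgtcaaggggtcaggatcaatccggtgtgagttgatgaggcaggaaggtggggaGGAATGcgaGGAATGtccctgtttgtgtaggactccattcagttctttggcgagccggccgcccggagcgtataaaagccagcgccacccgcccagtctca
Ccn1: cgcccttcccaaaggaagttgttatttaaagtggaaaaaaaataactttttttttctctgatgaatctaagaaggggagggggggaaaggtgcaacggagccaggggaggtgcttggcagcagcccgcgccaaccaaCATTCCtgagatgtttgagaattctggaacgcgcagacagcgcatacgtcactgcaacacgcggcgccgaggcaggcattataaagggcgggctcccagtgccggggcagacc
Ajuba: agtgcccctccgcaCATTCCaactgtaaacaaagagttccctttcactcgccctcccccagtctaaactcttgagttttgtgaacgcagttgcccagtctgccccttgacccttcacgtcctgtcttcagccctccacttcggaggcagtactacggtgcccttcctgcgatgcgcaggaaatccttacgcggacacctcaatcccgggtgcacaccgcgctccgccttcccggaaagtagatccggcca
Ccn2 held 3 matches, all on its own strand, at 166 to 161, 101 to 96 and 92 to 87 bases before the start. Ccn1 had 1 match on the other strand at 113 to 108 bases before the start, and Ajuba 1 on the other strand at 236 to 231. The Axl window held none. Ankrd1 is named only. Both strands were searched, and copies that share a base were each counted.

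Of all 33469 promoter windows of this length, 12.1% held GGAATG on either strand, 0.902% held at least 2 copies and 0.0807%, or 27 windows, held at least 3. Ccn2 was one of those 27. Among the other listed target genes 4 of 17 windows held it (23.5%), and among the Hippo pathway components 5 of 20 (25.0%). The AP-1 letters TGANTCA were in 0 of the 4 windows of these genes and in 6.34% of all windows. A match in these letters is a description and not a measured binding site.

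**Figure D1:**
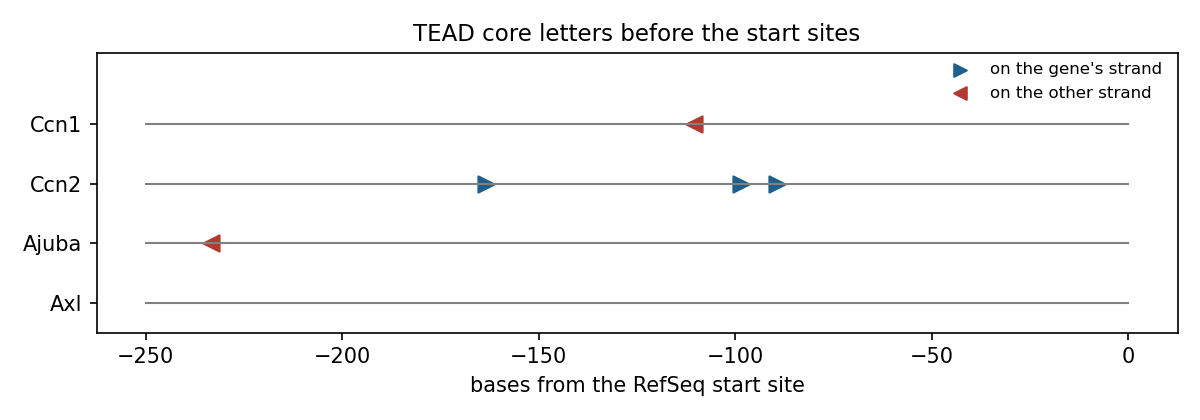
Positions of GGAATG in the 250 bases before the RefSeq start site of Ccn1, Ccn2, Ajuba and Axl (x axis, bases from the start; arrowheads point along the strand that holds the letters). Ccn2 carries 3 matches on its own strand, Ccn1 and Ajuba 1 each on the other strand, and Axl none.

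Ccn2 and Ccn1 encode secreted matricellular proteins that bind integrins and matrix components at the cell surface. Ccn2 intensity (probe set 1367631_at) was 2285.3, 854.4 and 526.0 with NF1 RNAi + U0126 and 1442.0, 1396.4 and 816.6 with NF1 RNAi, against 14672.1, 9432.3 and 8025.3 with Control RNAi. The lowest control array was therefore above the highest array of either knockdown group, while the knockdown groups overlapped. On its array this probe set stood on average at percentile 87.3 of the signal with NF1 RNAi + U0126 and 90.0 with NF1 RNAi, against 99.6 with Control RNAi. Its mean intensity was 11.4% of the control mean in both knockdown groups.

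Ccn2 was lower by 3.13 ± 0.49 on the log2 scale in NF1 RNAi against Control RNAi, or 8.77-fold, which placed it 5 from the bottom of 14213 genes. In NF1 RNAi + U0126 against Control RNAi the log2 difference was -3.36 ± 0.49, or 10.25-fold lower, and the gene ranked 15 from the bottom. This value was -3.95 without NF1 RNAi + U0126 replicate 1, and -2.89 to -3.54 with any other single array left out. Between NF1 RNAi + U0126 and NF1 RNAi it was -0.23 ± 0.49, within its error. That last value moved between -0.82 and 0.24 as each array was left out in turn. As in every comparison of mixed RNA, fewer cells of a type and less RNA per cell cannot be told apart.

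Ccn1 (1368290_at) was also highest with Control RNAi. Its intensity was 502.9, 232.3 and 208.0 with NF1 RNAi + U0126 and 291.0, 251.5 and 210.8 with NF1 RNAi, against 1731.5, 799.3 and 969.2 with Control RNAi. Again the control arrays lay above all 6 knockdown arrays and the knockdown groups overlapped. The log2 difference was -2.14 ± 0.36 in NF1 RNAi against Control RNAi (4.42-fold lower, 48 from the bottom) and -1.92 ± 0.36 in NF1 RNAi + U0126 against Control RNAi (3.80-fold lower, 121 from the bottom). Between NF1 RNAi + U0126 and NF1 RNAi it was 0.22 ± 0.36, with a range of -0.18 to 0.46 as arrays were left out.

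In both CCN genes replicate 1 was the highest array of every group. For Ccn2 it exceeded its group mean by 1.18 on the log2 scale with NF1 RNAi + U0126, by 0.29 with NF1 RNAi and by 0.50 with Control RNAi. For Ccn1 these excesses were 0.79, 0.22 and 0.65 in the same groups. With all 3 replicate 1 arrays left out, NF1 RNAi against Control RNAi gave -3.03 for Ccn2 and -1.93 for Ccn1, close to the values above.

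Ankrd1 encodes an ankyrin repeat protein of the nucleus and cytoplasm, best known from muscle, where it responds to stretch. Its brighter probe set (1367664_at) read 87.4, 71.1 and 82.5 with NF1 RNAi + U0126 and 68.4, 84.3 and 59.2 with NF1 RNAi, against 219.2, 161.0 and 156.2 with Control RNAi. The second probe set (1367665_at) read 75.6, 64.0 and 84.6 with NF1 RNAi + U0126 and 75.6, 82.8 and 75.0 with NF1 RNAi, against 149.1, 146.0 and 125.2 with Control RNAi. By both probe sets the control arrays were separate from the knockdown arrays, and the knockdown groups overlapped.

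The knockdown readings of Ankrd1 were near or under the median of their arrays (94.6 to 96.7). Adding 1 before the logarithm made little difference there: with nothing added, NF1 RNAi against Control RNAi gave -1.34 by the brighter probe set. The log2 difference in NF1 RNAi against Control RNAi was -1.33 ± 0.16 (2.51-fold lower), and -0.84 ± 0.11 by the second probe set. In NF1 RNAi + U0126 against Control RNAi it was -1.13 ± 0.16 (2.19-fold lower), and -0.90 ± 0.11 by the second. Between NF1 RNAi + U0126 and NF1 RNAi the 2 probe sets gave 0.19 ± 0.16 and -0.06 ± 0.11, of opposite sign and with overlapping groups.

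Axl encodes a receptor tyrosine kinase whose ligand is Gas6. Its intensity (1398347_at) was 2410.3, 1912.2 and 1470.5 with NF1 RNAi + U0126 and 1672.9, 1740.4 and 1690.4 with NF1 RNAi, against 2903.1, 3062.0 and 2898.8 with Control RNAi. The control arrays were close together and above all others, and the NF1 RNAi arrays, also close together, lay inside the wide range of the NF1 RNAi + U0126 arrays. The log2 difference was -0.80 ± 0.15 in NF1 RNAi against Control RNAi (1.74-fold lower), which was the smallest of the 5. It was -0.64 ± 0.15 in NF1 RNAi + U0126 against Control RNAi (1.56-fold lower), with a range of -0.82 to -0.46 as arrays were left out, and 0.15 ± 0.15 between NF1 RNAi + U0126 and NF1 RNAi.

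Ajuba encodes a LIM domain scaffold protein that binds and restrains LATS kinases, so it sits both upstream and downstream of YAP. Unlike the other genes it had 3 separate levels, by its brighter probe set only. This probe set (1373122_at) read 478.7, 500.5 and 478.7 with NF1 RNAi + U0126 and 231.6, 273.6 and 277.9 with NF1 RNAi, against 670.0, 656.6 and 736.2 with Control RNAi. No array of one group reached the range of another, with NF1 RNAi lowest, NF1 RNAi + U0126 between, and Control RNAi highest.

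The second Ajuba probe set (1388230_at) read 134.2, 145.3 and 169.5 with NF1 RNAi + U0126 and 78.5, 96.2 and 96.3 with NF1 RNAi, against 157.0, 185.4 and 219.7 with Control RNAi. It kept the order of the means, but here the NF1 RNAi + U0126 and Control RNAi arrays overlapped. In NF1 RNAi against Control RNAi the log2 difference of Ajuba was -1.40 ± 0.08 (2.63-fold lower), and -1.04 ± 0.14 by the second probe set. With U0126, Ajuba was higher by 0.90 ± 0.08 in NF1 RNAi + U0126 against NF1 RNAi (1.86-fold), and by 0.72 ± 0.14 by the second probe set. It remained below the control, at -0.50 ± 0.08 in NF1 RNAi + U0126 against Control RNAi (1.41-fold lower). By the second probe set this was -0.32 ± 0.14, which did not pass (limma over all probe sets, adjusted p = 0.126).

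**Figure D2:**
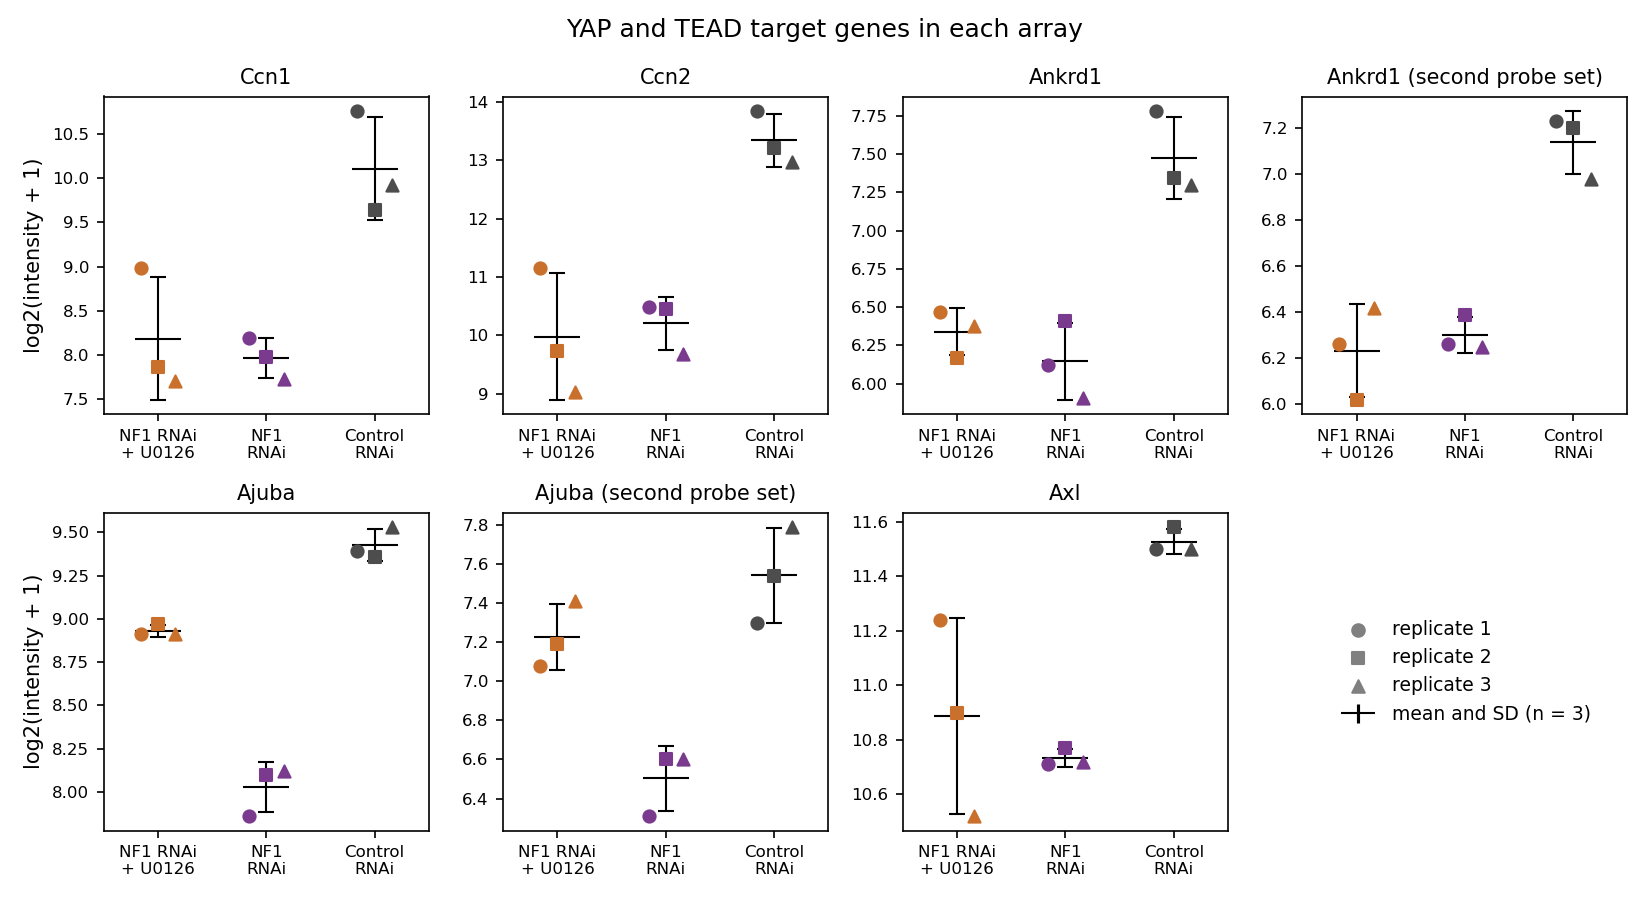
Log2(intensity + 1) of each probe set of the 5 genes in every array (y axis, each panel with its own range), by group. Symbols mark the replicate and bars the mean and SD of 3 arrays; Control RNAi arrays lie above NF1 RNAi arrays in every panel, and the NF1 RNAi + U0126 arrays stand apart from NF1 RNAi in the Ajuba panels.

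Counted over genes, 5 of 5 were called lower in NF1 RNAi against Control RNAi (limma, adjusted p under 0.05), where 13.3% of all genes were. All 5 also had groups that did not overlap in that direction, as did 20.0% of all genes. In NF1 RNAi + U0126 against Control RNAi 5 of 5 were called lower and did not overlap, against a background of 17.6% called lower and 21.7% with lower groups that did not overlap. With U0126 against NF1 RNAi alone, only Ajuba was called higher, against 6.71% of genes called higher and 17.8% with higher groups that did not overlap. Nothing is read from these counts, since the genes were chosen on these contrasts.

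The median log2 difference of the 5 genes was -1.40 in NF1 RNAi against Control RNAi, against 0.02 over all genes. It was 0.19 in NF1 RNAi + U0126 against NF1 RNAi, with 0.02 over all genes, and -1.13 in NF1 RNAi + U0126 against Control RNAi, with 0.04 over all genes. The comparisons share arrays: the control arrays serve in both comparisons with Control RNAi, and the NF1 RNAi arrays in both that use them.

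**Figure D3:**
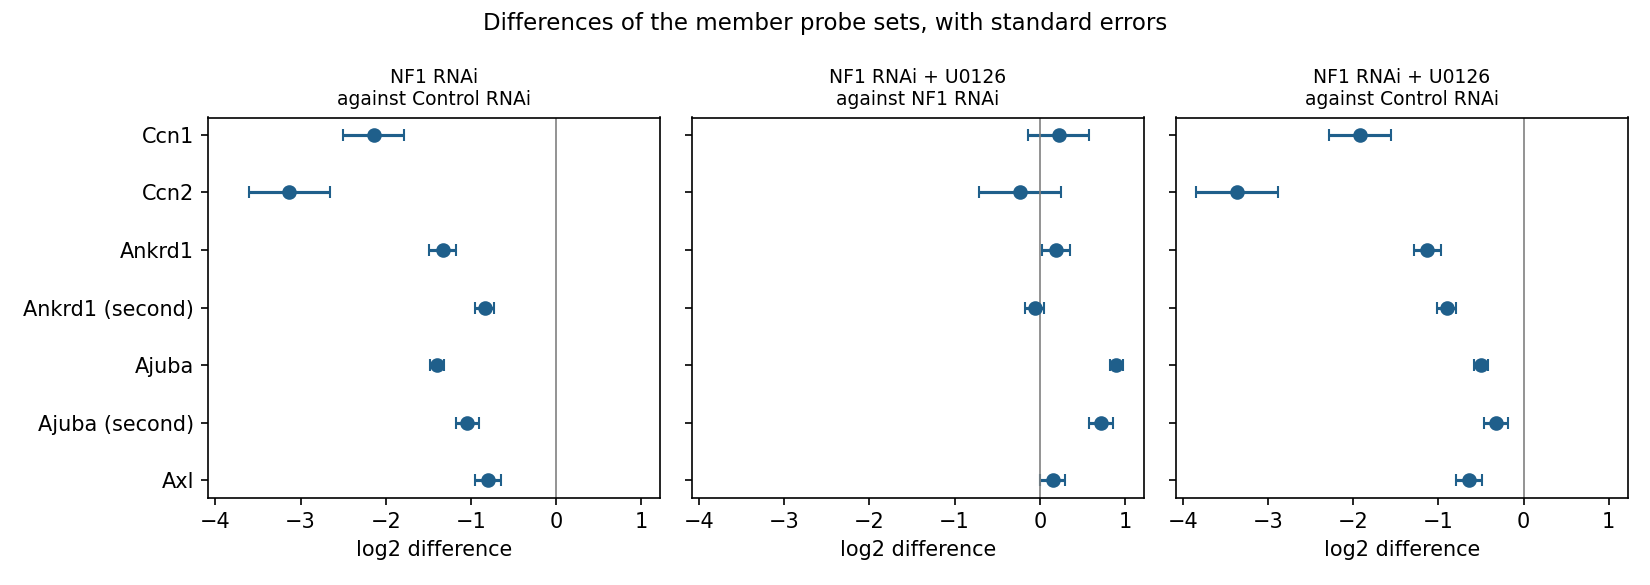
Log2 difference (x axis) of the 7 probe sets in the 3 comparisons, with bars of 1 SE. All 7 lie below 0 in both comparisons with Control RNAi, and with U0126 against NF1 RNAi alone the Ajuba probe sets lie at 0.90 and 0.72 while the others lie between -0.23 and 0.22.

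Across the 9 arrays Ccn1, Ccn2, Ankrd1 and Axl followed each other more closely than they followed Ajuba. Pearson's r was 0.97 for Ccn1 and Ccn2, 0.95 for Ccn1 and Ankrd1, 0.94 for Ccn2 and Axl, 0.93 for Ccn2 and Ankrd1, 0.92 for Ccn1 and Axl, and 0.87 for Ankrd1 and Axl. With Ajuba it was 0.66 for Ccn2, 0.73 for Ccn1, 0.78 for Axl and 0.79 for Ankrd1. These values describe 9 points that fall into 3 groups and share arrays, so each r includes the differences between group means.

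The genes with the most similar course over the 9 arrays were sought among 992 genes with a mean log2 of at least 6 and a difference of at least 1 between group means. For Ccn2 they were Zyx, P4ha3 and Casp12 (r = 0.99 each), and for Ccn1 Spats2l, Phactr1 and Rcn1 (0.98 each). For Ankrd1 they were Dhcr7, Iars1 and Sgms1 (0.98 each). Ajuba was nearest to Mdfic (0.98), Ahnak2 (0.97) and Stk39 (0.97), and Axl to Asns (0.97), Lama2 (0.97) and Prrg4 (0.96). Mdfic, the nearest to Ajuba, had log2 differences of -1.22 ± 0.12 in NF1 RNAi against Control RNAi and 0.71 ± 0.12 in NF1 RNAi + U0126 against NF1 RNAi. P4ha3, a collagen prolyl hydroxylase, had -2.67 ± 0.40 and -0.25 ± 0.40 in these comparisons, the course of Ccn2.

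Other target genes of YAP and TEAD moved in both directions. Of the listed genes, 21 were measured. In NF1 RNAi against Control RNAi 4 rose, where 13.0% of all genes did, and 6 fell, where 13.3% did. The other 11 did not pass the test, and the median log2 difference was -0.25. The list was thus split. The 5 genes all lay below 0, but they were chosen with these differences known, so nothing is read from that contrast.

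Among those that fell, Ccdc80, a secreted matrix protein, had a log2 difference of -1.82 ± 0.42 (limma adjusted p = 0.0117) in NF1 RNAi against Control RNAi. Asap1, a GTPase-activating protein for Arf, was at -1.06 ± 0.21 (adjusted p = 0.00622), and its other 4 probe sets gave -0.28 to -0.64. Nuak2, a kinase related to AMPK, was at -0.88 ± 0.13 (adjusted p = 0.00128). Amotl2, of the angiomotin family that binds YAP, was at -0.72 ± 0.14 (adjusted p = 0.00618), and the exchange factor Arhgef17 at -0.71 ± 0.11 (adjusted p = 0.00153), with -0.79 and -0.47 by its other probe sets. Ptpn14, a phosphatase that binds YAP, was at -0.54 ± 0.16 (adjusted p = 0.0339). That call was lost without any 1 of the NF1 RNAi arrays (up to 0.114) and with the mean of its probe sets (0.09). It was also lost without NF1 RNAi + U0126 replicate 2 (0.0546) or 3 (0.0516).

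Fjx1 and Dock5 ran the other way. Fjx1, a secreted regulator of Fat cadherins, rose by 0.88 ± 0.18 (adjusted p = 0.00765) in NF1 RNAi against Control RNAi. The Rac exchange factor Dock5 rose by 0.58 ± 0.08 (adjusted p = 0.00103), and by 0.60 by its second probe set. Igfbp3 had a log2 difference of -1.21 ± 0.45 that did not pass (adjusted p = 0.0819); with replicate number as a block it did (adjusted p = 0.00359).

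With U0126, 3 of the 21 rose in NF1 RNAi + U0126 against NF1 RNAi, where 6.71% of all genes did, and 3 fell, where 7.02% did. The other 15 did not pass, and the median was 0.01. Gadd45a, a growth arrest protein induced by DNA damage, rose by 1.10 ± 0.16 (adjusted p = 0.00257). Its intensity was 9163.0, 10002.6 and 10989.4 with NF1 RNAi + U0126, against 4570.3, 4328.9 and 5219.3 with NF1 RNAi. Control RNAi arrays read 3625.2, 4847.9 and 5830.0, and the difference of Gadd45a in NF1 RNAi against Control RNAi was 0.00 ± 0.16.

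Amotl2 and Arhgef17 were low with NF1 RNAi and higher with U0126, as Ajuba was. Their NF1 RNAi + U0126 and Control RNAi arrays overlapped, as did those of the second Ajuba probe set but not of the brighter one. Arhgef17 read 378.5, 319.6 and 304.2 with NF1 RNAi + U0126 and 192.2, 244.5 and 221.9 with NF1 RNAi, against 360.9, 341.7 and 375.0 with Control RNAi. It rose by 0.60 ± 0.11 (adjusted p = 0.0065) in NF1 RNAi + U0126 against NF1 RNAi, with 0.81 and 0.54 by its other probe sets. Amotl2 read 2836.8, 2124.9 and 2230.5 with NF1 RNAi + U0126 and 1391.2, 1476.9 and 1779.0 with NF1 RNAi, against 2420.1, 2279.9 and 2965.5 with Control RNAi. Its rise of 0.63 ± 0.14 (adjusted p = 0.0209) did not pass without NF1 RNAi replicate 1 (0.0695), NF1 RNAi replicate 2 (0.0802) or NF1 RNAi + U0126 replicate 1 (0.055).

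The falls with U0126 were less firm. Nt5e, the surface enzyme CD73, had a log2 difference of -1.18 ± 0.32 (adjusted p = 0.0439) in NF1 RNAi + U0126 against NF1 RNAi, at low intensities of 22.8, 21.7 and 23.8 with NF1 RNAi + U0126, against 85.8, 50.0 and 33.8 with NF1 RNAi. Rbms3, an RNA-binding protein, was at -0.59 ± 0.16 (adjusted p = 0.04). Amotl1 was at -0.23 ± 0.07 (adjusted p = 0.048), but at -0.03 by its second probe set. With the mean of its probe sets Amotl1 did not pass (adjusted p = 0.251). The count of 6 became 2 without NF1 RNAi replicate 1 or without NF1 RNAi replicate 2, and 3 without Control RNAi replicate 2 or without any 1 of the NF1 RNAi + U0126 replicates. With replicate number as a block Ccdc80, which had 0.89 ± 0.42 (adjusted p = 0.21), and Asap1, with 0.46 ± 0.21 (adjusted p = 0.2), passed as well, at adjusted p = 0.0121 and adjusted p = 0.00797. As single arrays were left out, the adjusted p reached 0.123 for Nt5e, 0.136 for Rbms3 and 0.166 for Amotl1.

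Against Control RNAi, 3 of the 21 rose with NF1 RNAi + U0126, where 17.9% of all genes did, and 4 fell, where 17.6% did. The other 14 did not pass, and the median was -0.11. Gadd45a rose by 1.10 ± 0.16 (adjusted p = 0.000749) and Dock5 by 0.61 ± 0.08 (adjusted p = 0.000411). Rbms3 fell by 0.84 ± 0.16 (adjusted p = 0.00307) and Nuak2 by 0.68 ± 0.13 (adjusted p = 0.00296). Without NF1 RNAi + U0126 replicate 3 the count of 7 became 4. Igfbp3, Asap1 and Ccdc80 had differences of -1.22 ± 0.45, -0.60 ± 0.21 and -0.93 ± 0.42 that did not pass; with the replicate block they did, at adjusted p = 0.00235, adjusted p = 0.000948 and adjusted p = 0.00422.

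**Figure D4:**
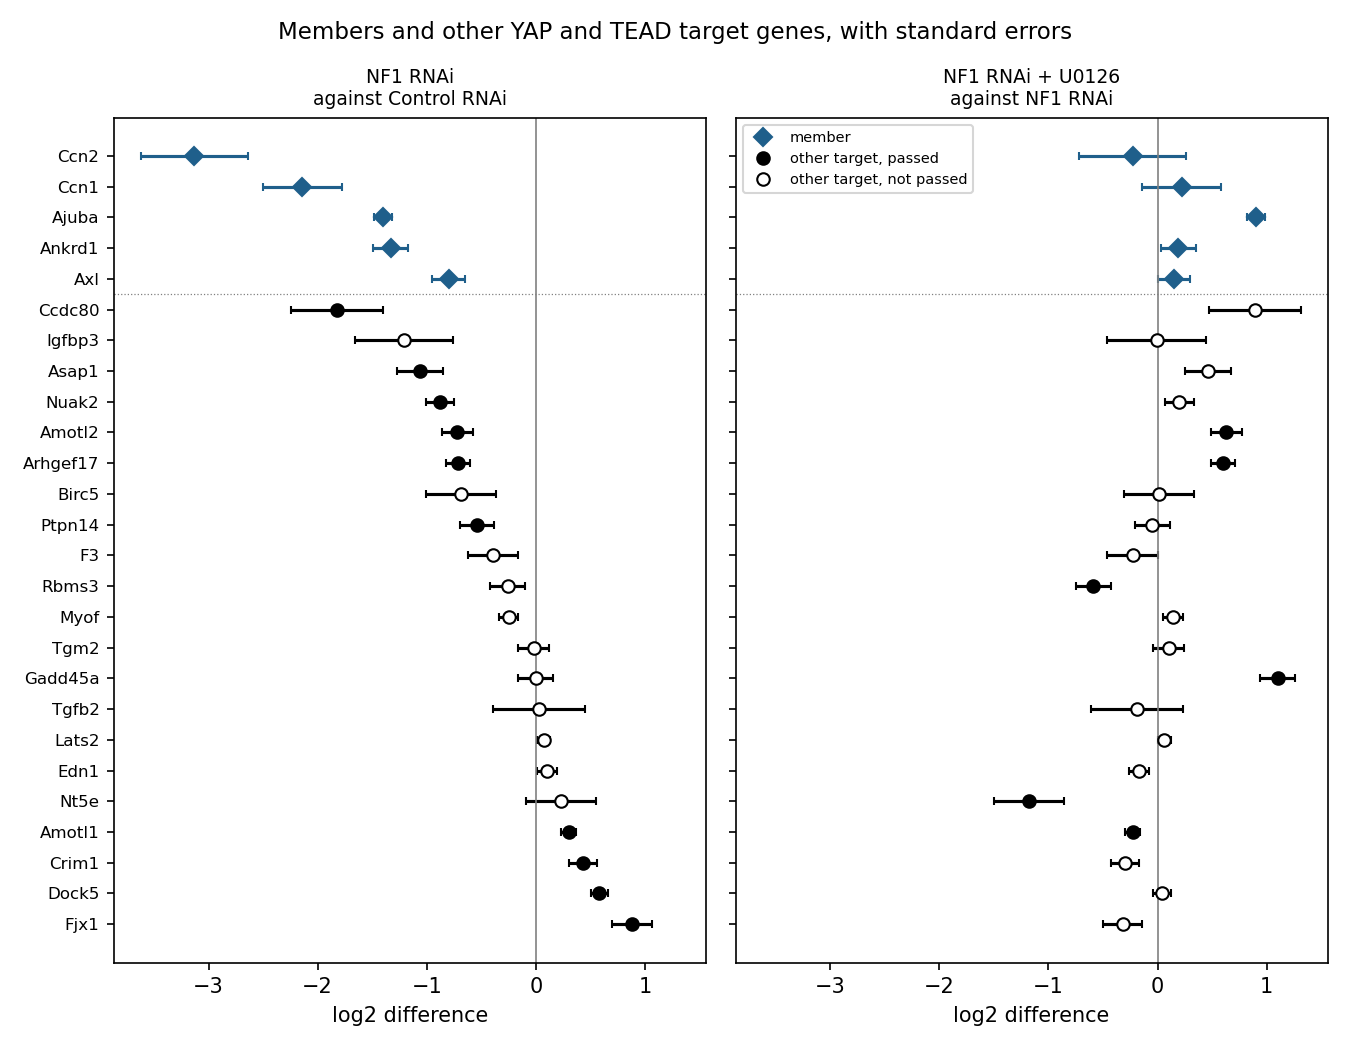
Log2 difference (x axis, bars of 1 SE) of the 5 genes, above the dotted line, and of 21 other YAP and TEAD target genes in NF1 RNAi against Control RNAi (left) and NF1 RNAi + U0126 against NF1 RNAi (right). Filled circles passed at adjusted p under 0.05. The other targets spread from -1.82 (Ccdc80) to 0.88 (Fjx1) on the left. The 5 genes, chosen with these values known, lie there between -3.13 and -0.80.

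Transcripts of 3 of the 4 TEAD genes fell with the knockdown. Of 27 listed Hippo pathway components 25 were measured; Yap1 and Mob1a were not analysed here. In NF1 RNAi against Control RNAi 6 rose, 7 fell and 12 did not pass, with a median of 0.01, where 13.0% of all genes rose and 13.3% fell. Tead2 fell by 0.62 ± 0.11 (limma adjusted p = 0.00407), Tead3 by 0.62 ± 0.07 (adjusted p = 0.000395) and Tead1 by 0.36 ± 0.06 (adjusted p = 0.00304), while Tead4 was at 0.01 ± 0.07 (adjusted p = 0.958).

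Tead1 read 2026.3, 1989.3 and 1914.4 with NF1 RNAi + U0126 and 2285.8, 2379.7 and 2361.4 with NF1 RNAi, against 3199.5, 2997.9 and 2822.2 with Control RNAi. Tead3 read 401.2, 381.1 and 351.3 with NF1 RNAi + U0126 and 443.2, 479.3 and 428.9 with NF1 RNAi, against 724.3, 676.7 and 676.1 with Control RNAi. For both genes, by the probe set of highest mean, the 3 groups did not overlap and NF1 RNAi + U0126 was lowest. In NF1 RNAi + U0126 against Control RNAi Tead3 fell by 0.87 ± 0.07 (adjusted p = 3.3e-05) and Tead1 by 0.60 ± 0.06 (adjusted p = 0.000113).

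Tead2 had another order. It read 763.2, 925.2 and 930.7 with NF1 RNAi + U0126 and 578.9, 756.7 and 721.4 with NF1 RNAi, against 1016.3, 1072.2 and 1044.8 with Control RNAi. The difference was 0.35 ± 0.11 (adjusted p = 0.074) in NF1 RNAi + U0126 against NF1 RNAi and -0.26 ± 0.11 (adjusted p = 0.102) in NF1 RNAi + U0126 against Control RNAi. With replicate number as a block both passed, at adjusted p = 0.0154 and adjusted p = 0.0241.

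Wwtr1, which encodes TAZ, was highest with NF1 RNAi alone. It read 649.9, 862.6 and 887.4 with NF1 RNAi + U0126 and 1344.3, 1480.3 and 1614.4 with NF1 RNAi, against 852.6, 1076.6 and 1135.1 with Control RNAi. It rose by 0.54 ± 0.15 (adjusted p = 0.0238) in NF1 RNAi against Control RNAi, a call lost without Control RNAi replicate 1 (0.0583), NF1 RNAi replicate 2 (0.0683) or NF1 RNAi replicate 3 (0.0833). It fell by 0.90 ± 0.15 (adjusted p = 0.00434) in NF1 RNAi + U0126 against NF1 RNAi. Against Control RNAi the NF1 RNAi + U0126 arrays overlapped and the difference was -0.36 ± 0.15 (adjusted p = 0.0901), which passed with the replicate block (adjusted p = 0.00392).

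Vgll3, a cofactor that binds TEAD factors, had the largest change of the 25 components in NF1 RNAi against Control RNAi. It read 372.4, 303.8 and 300.1 with NF1 RNAi + U0126 and 194.5, 257.4 and 249.2 with NF1 RNAi, against 1443.2, 1053.4 and 1127.4 with Control RNAi. There it fell by 2.36 ± 0.15 (adjusted p = 3.16e-05), and the difference was -1.88 ± 0.15 (adjusted p = 3.02e-05) in NF1 RNAi + U0126 against Control RNAi. Its log2 difference without the inhibitor thus lay between those of Ccn2 and Ccn1.

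Among upstream regulators the FERM domain protein Frmd6 fell and the scaffold Amot and the cadherin Fat4 rose. Frmd6 read 1710.8, 1387.4 and 1344.8 with NF1 RNAi + U0126 and 1809.2, 2013.3 and 1928.4 with NF1 RNAi, against 3802.5, 3836.1 and 3632.4 with Control RNAi. Amot read 1241.9, 1423.5 and 1381.9 with NF1 RNAi + U0126 and 2533.6, 2065.3 and 1739.6 with NF1 RNAi, against 988.9, 850.9 and 835.5 with Control RNAi. Frmd6 was thus lower in all knockdown arrays than in any control array, and Amot higher.

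In NF1 RNAi against Control RNAi Frmd6 fell by 0.97 ± 0.09 (adjusted p = 0.000162), Amot rose by 1.23 ± 0.13 (adjusted p = 0.000283) and by 1.45 by its second probe set, and Fat4 rose by 1.47 ± 0.23 (adjusted p = 0.002). Wwc2, of the KIBRA family that activates LATS, fell by 0.57 ± 0.10 (adjusted p = 0.00372). Wwc2 was at 0.32 ± 0.10 (adjusted p = 0.0717, with the replicate block 0.0253) in NF1 RNAi + U0126 against NF1 RNAi and at -0.25 ± 0.10 (adjusted p = 0.0916, with the block 0.0362) in NF1 RNAi + U0126 against Control RNAi. With U0126 0 components rose and 6 fell in NF1 RNAi + U0126 against NF1 RNAi by limma, where 6.71% of all genes rose and 7.02% fell. The median was -0.01, and 11 of the 25 had an unadjusted p under 0.05 in either direction. Amot was at -0.63 ± 0.13 (adjusted p = 0.0139; 0.0502 without NF1 RNAi replicate 2), Frmd6 at -0.38 ± 0.09 (adjusted p = 0.0274), and Tead3 at -0.25 ± 0.07 (adjusted p = 0.0469). Tead1 and Stk3, which encodes MST2, were at -0.24 ± 0.06 (adjusted p = 0.0304) and -0.23 ± 0.06 (adjusted p = 0.0352). As single arrays were left out the adjusted p reached 0.105 for Frmd6 and Tead1, 0.164 for Tead3 and 0.104 for Stk3. The count of 6 became 1 without NF1 RNAi replicate 2, 2 without NF1 RNAi replicate 3, NF1 RNAi + U0126 replicate 2 or NF1 RNAi + U0126 replicate 3, and 3 without NF1 RNAi replicate 1 or Control RNAi replicate 2.

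Against Control RNAi, 3 components rose with NF1 RNAi + U0126 and 5 fell, with a median of 0.01, counts near the 17.9% of all genes that rose and the 17.6% that fell. With replicate number as a block 4 rose and 9 fell. Fat4 rose by 1.91 ± 0.23 (adjusted p = 0.000275) and Amot by 0.60 ± 0.13 (adjusted p = 0.007), while Frmd6 fell by 1.35 ± 0.09 (adjusted p = 1.56e-05).

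**Figure D5:**
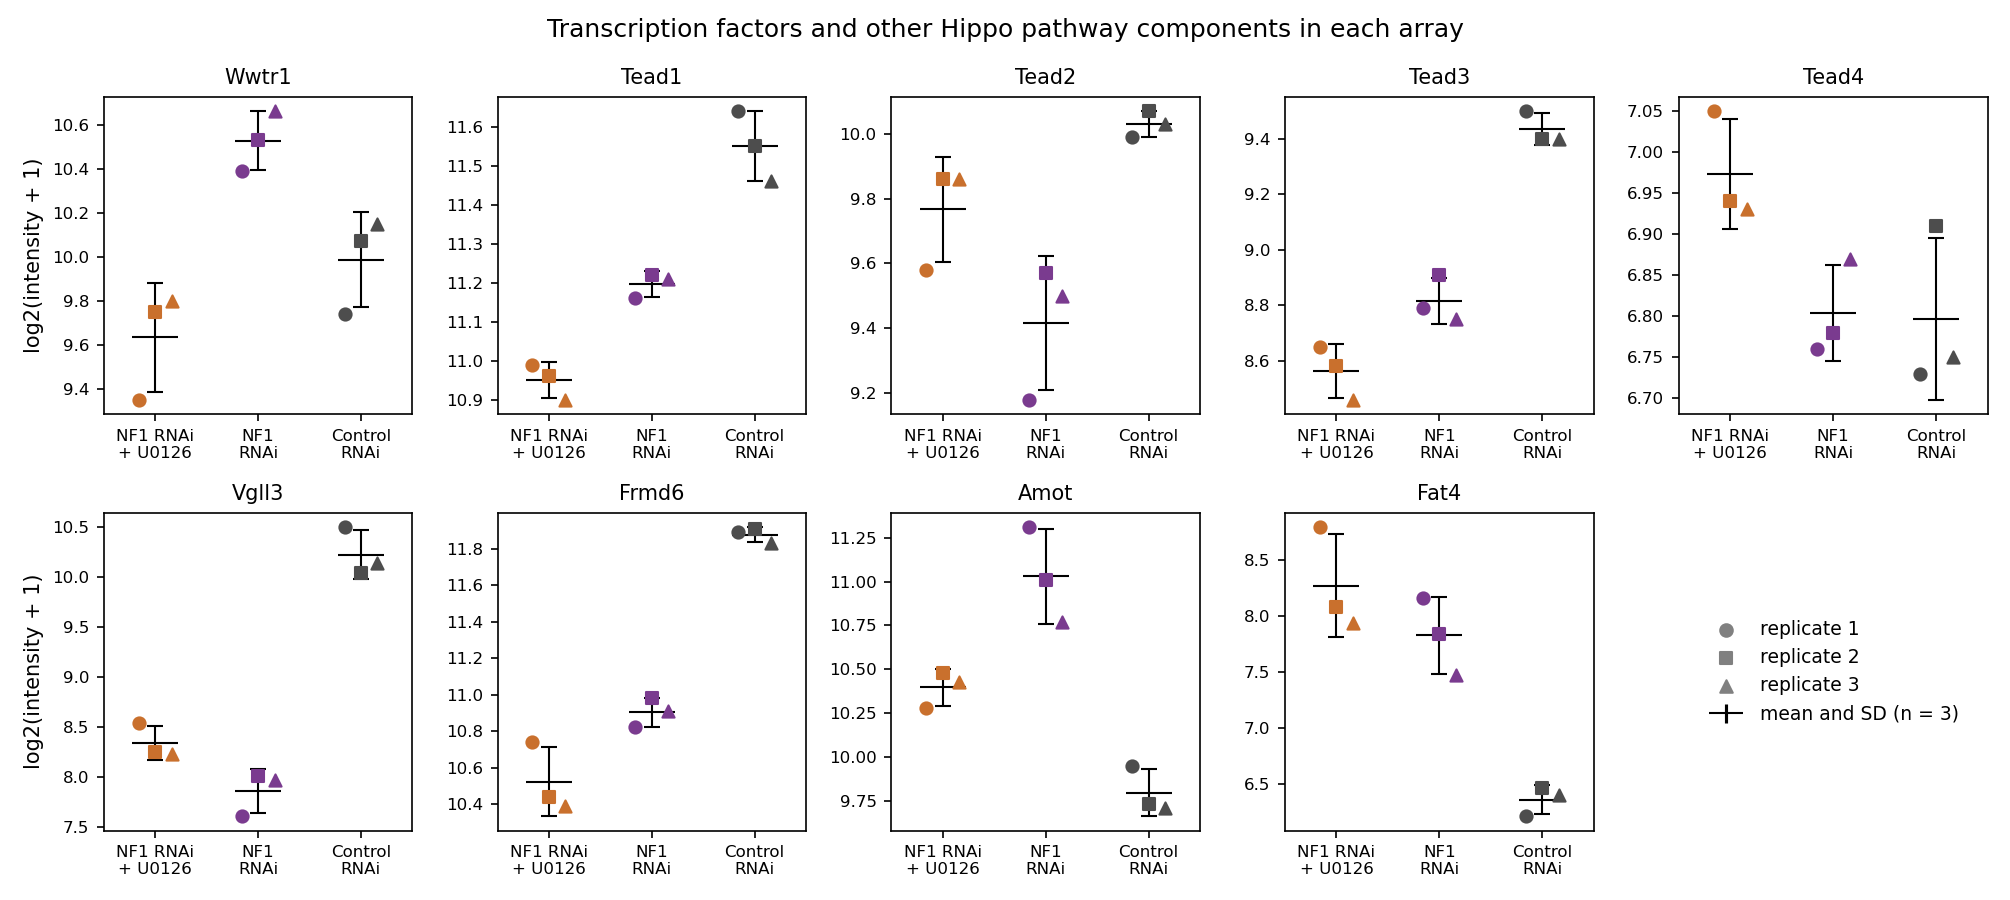
Log2(intensity + 1) in every array (y axis, each panel with its own range) of Wwtr1, the TEAD genes, Vgll3, Frmd6, Amot and Fat4, by group, with the mean and SD of 3 arrays. Tead1 and Tead3 are lowest with NF1 RNAi + U0126, Wwtr1 and Amot highest with NF1 RNAi, and Vgll3 and Frmd6 highest with Control RNAi.

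Relatives of the 5 genes did not all follow them. Of 4 other CCN genes measured, Ccn3 fell in NF1 RNAi against Control RNAi, by 0.80 ± 0.21 (limma adjusted p = 0.0221; 0.063 without NF1 RNAi replicate 1 and 0.0704 without NF1 RNAi replicate 2). Its intensity was 95.4, 99.7 and 82.2 with NF1 RNAi + U0126 and 87.2, 85.0 and 94.5 with NF1 RNAi, against 234.4, 127.9 and 125.9 with Control RNAi. The control arrays were higher than all others, as for Ccn1 and Ccn2, by a smaller amount. Ccn5, at 15.7 to 24.6 in all arrays, had a log2 difference of -0.33 ± 0.11 in NF1 RNAi against Control RNAi (limma adjusted p = 0.0505) and passed with the replicate block (adjusted p = 0.0228).

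Among the receptors related to Axl, Tyro3 fell and Mertk rose. Tyro3 read 258.2, 191.9 and 217.5 with NF1 RNAi + U0126 and 122.6, 166.1 and 128.3 with NF1 RNAi, against 395.7, 439.3 and 402.0 with Control RNAi. It fell by 1.57 ± 0.14 (adjusted p = 9.42e-05) in NF1 RNAi against Control RNAi and rose by 0.68 ± 0.14 (adjusted p = 0.0112) in NF1 RNAi + U0126 against NF1 RNAi. The 3 groups did not overlap, as for the brighter probe set of Ajuba.

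Mertk read 952.2, 1481.2 and 1746.5 with NF1 RNAi + U0126 and 1111.0, 1340.5 and 1428.3 with NF1 RNAi, against 327.2, 545.8 and 640.8 with Control RNAi. It rose by 1.40 ± 0.28 (adjusted p = 0.00579) in NF1 RNAi against Control RNAi and by 1.47 ± 0.28 (adjusted p = 0.003) in NF1 RNAi + U0126 against Control RNAi. The ligand gene Gas6 has no clear direction, since its 3 probe sets gave 0.31, -1.64 and 0.05 in NF1 RNAi against Control RNAi. The ligand Pros1 was at -0.35 ± 0.17 (adjusted p = 0.167), and passed with the replicate block (adjusted p = 0.0278).

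LIM domain proteins related to Ajuba split as well. Zyx, which encodes the focal adhesion protein zyxin, read 1484.1, 1139.6 and 1019.0 with NF1 RNAi + U0126 and 1409.9, 1406.7 and 1134.1 with NF1 RNAi, against 3495.2, 2868.2 and 2496.4 with Control RNAi. It fell by 1.16 ± 0.17 (adjusted p = 0.00121) in NF1 RNAi against Control RNAi, while its relative Trip6 was at -1.48 ± 0.15 (adjusted p = 0.000238). Both remained low with U0126: in NF1 RNAi + U0126 against Control RNAi Zyx fell by 1.29 ± 0.17 (adjusted p = 0.000386) and Trip6 fell by 1.36 ± 0.15 (adjusted p = 0.000184).

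Limd1 and Wtip, the closest relatives of Ajuba and like it regulators of LATS, were not called lower. Limd1 rose by 0.31 ± 0.07 (adjusted p = 0.00903) in NF1 RNAi against Control RNAi, and Wtip was at -0.01 ± 0.07 (adjusted p = 0.974). Wtip rose by 0.46 ± 0.07 (adjusted p = 0.00431) in NF1 RNAi + U0126 against NF1 RNAi. Ankrd23, a relative of Ankrd1, rose by 0.81 ± 0.09 (adjusted p = 0.00041) in NF1 RNAi against Control RNAi, opposite to Ankrd1.

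Markers of other cell types were summed in each array. The Schwann cell genes Sox10, S100b, Erbb3 and Ngfr, 4 of 6 listed, were well expressed: their sum had a lowest, median and highest value of 25555.1, 25825.2 and 26087.9 with NF1 RNAi + U0126, 28661.5, 28730.7 and 28766.6 with NF1 RNAi, and 17222.7, 22096.5 and 22422.2 with Control RNAi. In NF1 RNAi against Control RNAi S100b rose by 0.79 ± 0.07 (adjusted p = 0.000136), while the lineage factor Sox10 was at -0.02 (adjusted p = 0.859) and Ngfr at 0.17 ± 0.17 (adjusted p = 0.517). Erbb3 was at 0.53 ± 0.22 (adjusted p = 0.115) and passed with the replicate block (adjusted p = 0.000939).

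The sum of the 8 fibroblast markers was lower in every knockdown array than in any control array. It had a lowest, median and highest value of 23013.2, 25348.4 and 30931.1 with NF1 RNAi + U0126, 30408.0, 31141.7 and 31506.6 with NF1 RNAi, and 37014.7, 38278.9 and 39020.0 with Control RNAi. Most of that sum was Col1a1, Col1a2 and Col3a1, collagen genes that Schwann cells also express, and in NF1 RNAi against Control RNAi Col3a1 fell by 2.06 (adjusted p = 0.00346) while Ogn rose by 0.68 (adjusted p = 0.0171; lost without NF1 RNAi replicate 1, 0.0605, or Control RNAi replicate 2, 0.0603, or 3, 0.0561) and the other 6 did not pass. The fibroblast genes Dcn, at intensities of 13.5 to 18.7, and Lum, at 7.2 to 9.7, were near the lowest value in the table (5.62) in all 9 arrays. Their part in the results above was not tested.

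Neuron markers, 6 of 6, also had their highest sum with Control RNAi: the lowest, median and highest values were 1395.1, 1709.3 and 1759.5 with NF1 RNAi + U0126 and 520.9, 898.3 and 1112.3 with NF1 RNAi, against 2280.4, 3905.1 and 4510.8 with Control RNAi. Tubb3 and Nefl were lower in NF1 RNAi against Control RNAi, by log2 differences of -2.30 ± 0.34 (adjusted p = 0.00145) and -2.25 ± 0.35 (adjusted p = 0.00177). Rbfox3 went the other way, at 0.30 ± 0.08 (adjusted p = 0.0289), a call lost without NF1 RNAi replicate 1 (0.0717) or 3 (0.0976) or Control RNAi replicate 2 (0.0845) or 3 (0.0876), and with the mean of its probe sets (0.135). Snap25, Syt1 and Stmn2 stayed between 10.4 and 24.9 in all arrays. Endothelial and mural markers, 7 of 8, summed to 504.3, 582.9 and 626.8 with NF1 RNAi + U0126 and 493.5, 524.9 and 535.7 with NF1 RNAi, against 548.3, 649.4 and 713.1 with Control RNAi. Macrophage markers, 6 of 6, summed to 407.8, 423.6 and 466.7 with NF1 RNAi + U0126 and 374.7, 387.1 and 393.1 with NF1 RNAi, against 326.9, 338.8 and 345.8 with Control RNAi. Their sum was thus highest with NF1 RNAi + U0126. Of these markers only Cd68 was separately higher there, at 101.9, 136.6 and 125.0, against 69.3, 65.5 and 57.5 with NF1 RNAi. Laptm5 was lower, at 142.4, 149.2 and 140.8 against 158.0, 154.2 and 162.8. For Ptprc, Aif1, Csf1r and Itgam the arrays of both groups overlapped. The part of these cell types was not tested.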

How the data were processed

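RNA of 9 cultures in 3 groups was hybridised to Affymetrix rat arrays. The deposited table gives 1 linear intensity per probe set and array, summarised by the authors with RMA (background correction, quantile normalization and probe summary) per the submitters' processing notes. The sources used here give no version. Of 31099 probe sets 57 controls were left out. A platform annotation paired 20826 probe sets with a single gene; 436 had several and 9780 none, and symbols were updated through RefSeq's GRCr8 gene table, mostly by gene ID. Log2(intensity + 1), which understates changes of dim probe sets, was fitted with limma 3.58.1 in R 4.3.3 as 3 group means over 9 arrays (6 residual degrees of freedom, no low-value filter), with Benjamini-Hochberg adjustment over 14213 genes, taking for each gene the probe set of highest mean. The number of arrays limits the precision. No more than 3.392% of values were identical between any 2 arrays.

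The 5 genes and all lists were chosen with earlier results of these data known. Up to 8 genes past the threshold with the largest differences were named per list and comparison, besides the TEAD genes and Wwtr1, and in a few cases genes that did not pass, chosen after their values were seen. On simulated data for NF1 RNAi against Control RNAi, 62.5%, 96.8% and 98.6% of changes of 0.5, 1 and 2 (log2) were recovered among 14213 genes. That simulation changed 200 genes and drew the noise of each array independently. The measured arrays shared deviations by replicate number, as given below, so these shares need not hold for them. The labels do not say what a replicate number marks. Deviations from group means correlated at 0.17 to 0.62 in all 9 pairs of same-numbered arrays of different groups, against -0.52 to 0.40 in 18 other pairs. A fit with the number as a block was therefore run as an alternative. The main fit leaves the number out, so the SEs and adjusted p printed ignore any pairing unless the block is named. With the block, the SE in NF1 RNAi against Control RNAi was 0.26 for Ccn2, 0.18 for Ccn1, 0.15 for Ankrd1, 0.07 for Ajuba and 0.13 for Axl. Other alternatives were array weights, quantile normalization, a pseudocount of 16, a filter at log2 6 in 3 arrays (10159 genes left), other gene summaries, stricter thresholds and leaving out arrays.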

Additional observations from a re-analysis of the deposited data

How the results depend on the processing

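The 5 genes kept their direction in both comparisons with Control RNAi under every alternative tried, and their counts there were 5 whichever array was left out. With a 2-fold limit 3 of them were past it in NF1 RNAi + U0126 against Control RNAi, and 0 in NF1 RNAi + U0126 against NF1 RNAi, where Ajuba was the only call; counted as probe sets that comparison had 2 calls, both of Ajuba. Of the 4 uncalled genes in NF1 RNAi + U0126 against NF1 RNAi, Ankrd1 stayed between 0.04 and 0.33 in the fits over genes. Its second probe set alone gave -0.06. The other 3 changed sign: Ccn1 was -0.18 without NF1 RNAi + U0126 replicate 1 and -0.07 without any replicate 1 array, Axl -0.02 and -0.03, and Ccn2 0.24 without NF1 RNAi + U0126 replicate 3. Leaving out single arrays gave -0.18 to 0.46 for Ccn1, -0.82 to 0.24 for Ccn2 and -0.02 to 0.34 for Axl. The cause was not tested.

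Counts over all genes were 3734, 1951 and 5047 for comparison A (NF1 RNAi against Control RNAi), B (with U0126 against NF1 RNAi alone) and C (with U0126 against Control RNAi). All probe sets gave 6338, 3113 and 8710 of more features, adjusted p under 0.01 gave 2116, 904 and 3303, a 2-fold limit 525, 281 and 874, and array weights 5980 in A and 3261 in B. Leaving out an array gave 2790 to 3755, 1110 (without NF1 RNAi replicate 2) to 2587, and 4107 to 5089; without NF1 RNAi + U0126 replicate 2 B was 1226.

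Of the other target genes, 10, 6 and 7 passed: all probe sets gave 16, 10 and 11, the 2-fold limit 2, 2 and 1, adjusted p under 0.01 gave 2 in B and 4 in C, leaving out all replicate 1 arrays 11 in C, and leaving out an array 8 to 11, 2 to 7 and 4 to 9. Of the Hippo components, 13, 6 and 8 passed: all probe sets gave 20 in A and 14 in C, the 2-fold limit 3, 0 and 3, array weights 10 in B and 14 in C, adjusted p under 0.01 gave 1 in B, and leaving out an array 10 to 14, 1 to 9 and 8 to 11. In C, the replicate block and leaving out all replicate 1 arrays each gave 13 components. The block changed no call of the 5 genes or of Nf1, and each call it changed among the differences printed is given beside that gene. With 3 arrays a group and intensities near the low end for Nt5e, Nuak2 and Ankrd1, small differences of such genes were not resolved.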
